A study of Mus musculus with 30 samples.

Results

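The hair cycle signalling genes described here were 9 genes through which cells of the hair follicle signal to each other: the hedgehog ligand Shh, its receptor Ptch1 and the transcription factor Gli1, the WNT ligand Wnt10b, the receptor Lgr5, the transcription factor Sox9, the bone morphogenetic proteins Bmp2 and Bmp4, and the growth factor Fgf5. They were chosen by gene symbol and have 16 of the 45037 probe sets of the mouse expression arrays. Of these, 15 were among the 36029 probe sets tested, and each of the 9 genes kept at least 1. Where a gene has several probe sets, the one with the highest mean over all arrays is quoted.

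The arrays measured RNA of whole shaved back skin from female 129–C57BL/6 mice aged 8 to 12 weeks, either wild type (WT) or D6-deficient. D6, encoded by Ccbp2, is a decoy receptor that removes inflammatory CC chemokines. Mice of both genotypes received 3 applications of 50 μM TPA, a phorbol ester that irritates the skin, 24 h apart, and their skin was taken at days 1, 2, 4 or 6 after the last application. Control skin of each genotype, called untreated in the sample titles and acetone-treated in the descriptions and methods, stands as day 0. The 10 groups had 3 arrays each, labelled as biological replicates and 30 in all, and because the skin was removed the days are different mice. The D6-deficient mice lack the gene throughout the body, and the hair cycle stage of the mice is not given in the labels.

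Hair follicles pass through growth (anagen), regression (catagen) and rest (telogen). At the start of anagen, WNT and hedgehog signals act on the stem cells of the bulge and hair germ, the matrix at the base of the follicle then builds the hair shaft and its sheath from hair keratins, and melanocytes give it pigment. Ptch1 and Gli1 are themselves switched on by hedgehog signalling, so that their RNA is a common readout of it. BMP signals keep the stem cells at rest, and Fgf5 promotes the end of anagen.

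Values are log2 intensities, on which a difference of 1 stands for a factor of 2, and they set the same probe set side by side in different samples, not different genes. A gene passed when its Benjamini-Hochberg adjusted p over all tested probe sets was under 0.05 in limma. Where the arrays of groups are said not to overlap, this describes the values and is not a test. The share of all tested probe sets without such overlap was not computed. The medians of the arrays lay between 5.64 and 5.80, and replicate arrays differed with a median SD of 0.153. Of the 3 Ccbp2 probe sets, 1 separated the genotypes, with 15 WT arrays from 4.15 to 5.76 and 15 D6-deficient arrays from 3.30 to 3.86, while the other two overlapped, the brightest of them at 6.69 to 8.54 and 6.59 to 8.09. Markers of skin were high on every array, with a mean level of 10.5 to 13.2 for the 7 epidermal keratinocyte genes and 12.8 to 13.6 for the 6 fibroblast genes. The hybridization controls divided the arrays into set A (13 arrays) and set B (17 arrays), and each set held arrays of every group apart from D6-deficient day 6, whose 3 arrays were all in set B. The 3 arrays of every other group were split between the sets, so that values within a set rest on fewer than 3 of them.

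The promoters that bear on these genes are given first, from the RefSeq table of GRCm38.p6, which held 300 bases around a transcription start, 250 before and 50 from the start on, for 4 of the 9 genes: Ptch1, Wnt10b, Bmp4 and Fgf5. They were searched on both strands for the core of the GLI site, ACCACCC, and of the TCF/LEF site, CTTTGAT, through which hedgehog and WNT signals act on their targets. The promoter of Ptch1, a target of hedgehog signalling, lies at chr13:63565686-63565985 on the minus strand, that of the ligand gene Wnt10b at chr15:98778101-98778400 on the minus strand, and that of Bmp4, the only member whose level passed the test between the genotypes, at chr14:46390620-46390919 on the minus strand. Capitals mark the motif.

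Ptch1: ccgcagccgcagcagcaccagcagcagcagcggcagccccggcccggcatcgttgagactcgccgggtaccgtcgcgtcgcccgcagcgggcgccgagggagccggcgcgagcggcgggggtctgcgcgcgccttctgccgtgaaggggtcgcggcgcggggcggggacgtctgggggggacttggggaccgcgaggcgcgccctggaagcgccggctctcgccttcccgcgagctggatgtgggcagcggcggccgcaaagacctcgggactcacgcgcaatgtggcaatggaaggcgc

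Wnt10b: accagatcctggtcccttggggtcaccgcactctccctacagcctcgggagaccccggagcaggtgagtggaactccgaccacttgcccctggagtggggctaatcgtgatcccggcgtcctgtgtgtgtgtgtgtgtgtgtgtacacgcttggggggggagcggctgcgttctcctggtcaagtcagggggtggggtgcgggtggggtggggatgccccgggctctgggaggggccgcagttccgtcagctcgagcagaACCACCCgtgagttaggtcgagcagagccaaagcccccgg

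Bmp4: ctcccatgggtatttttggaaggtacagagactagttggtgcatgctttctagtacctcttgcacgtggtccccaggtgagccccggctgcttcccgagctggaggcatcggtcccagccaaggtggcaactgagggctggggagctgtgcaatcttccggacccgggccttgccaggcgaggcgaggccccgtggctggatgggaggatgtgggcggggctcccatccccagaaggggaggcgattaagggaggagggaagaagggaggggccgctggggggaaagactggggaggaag

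A GLI core stood once among the 4 promoters, in that of Wnt10b, on the strand of the gene with its first base at position 11 from the start. The same letters, on either strand, were in 4.61% of the 32817 promoters of the table. The TCF/LEF core, in 3.73% of all promoters, was in none of the 4. A match is a description of the letters, and the windows of Ptch1, Bmp4 and Fgf5 say nothing about sites elsewhere.

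The hedgehog genes Shh, Ptch1 and Gli1 were high at days 1 and 6 and not at days 2 and 4, in both genotypes. Shh rose 12.1-fold in WT skin and 23.3-fold in D6-deficient skin at day 1, and 15.6-fold and 18.7-fold at day 6. Between these days it was back at the level of control skin. Gli1 rose 4.04-fold to 4.77-fold in the same 4 comparisons, and Ptch1 rose there and fell below control skin at day 4. In whole skin a change in the number of cells of a type and in the RNA per cell cannot be told apart.

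Shh encodes the hedgehog ligand that matrix cells secrete. In WT skin its 3 arrays read 4.80, 5.08 and 5.71 at day 0, 7.46, 9.31 and 9.61 at day 1, then 8.25, 9.38 and 9.86 at day 6. At days 2 and 4 they read 5.27, 5.51 and 5.55, and 5.19, 5.43 and 5.63. Every WT array of days 1 and 6 therefore stood above every WT array of the other days. D6-deficient arrays read 5.34, 5.55 and 5.66 at day 0, 9.30, 10.30 and 10.57 at day 1, then 8.58, 10.28 and 10.37 at day 6. At days 2 and 4 they read 5.32, 5.54 and 5.67, and 5.49, 5.61 and 5.91. Again no array of days 1 and 6 overlapped any other, and over both genotypes the 12 arrays of days 1 and 6 ran from 7.46 to 10.57 and the 18 others from 4.80 to 5.91. In limma the log2 change from day 0 was 3.60 (SE 0.47, adjusted p = 6.9e-06) at day 1 and 3.97 (SE 0.47, adjusted p = 5.2e-06) at day 6 in WT skin. It was 4.54 (SE 0.47, adjusted p = 1.5e-07) and 4.23 (SE 0.47, adjusted p = 4.9e-07) in D6-deficient skin. At days 2 and 4 Shh did not pass in either genotype, with 95% intervals of the change that together ran from -0.97 to 1.21. The dimmer Shh probe set passed at day 6 in WT skin (1.11, adjusted p = 0.018) and at days 1 and 6 in D6-deficient skin (2.08 and 1.86, adjusted p = 3.8e-05 and 1.8e-04), but not at day 1 in WT skin (0.77, adjusted p = 0.095). With the methods' t-test and adjustment over all probe sets the call was lost in WT skin at day 1 (adjusted p = 0.065) and day 6 (adjusted p = 0.074) and in D6-deficient skin at day 6 (adjusted p = 0.051). Within the hybridization control sets the change was 2.54 to 4.86 in set A, without D6-deficient day 6, and 4.08 to 4.68 in set B.

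**Figure D1:**
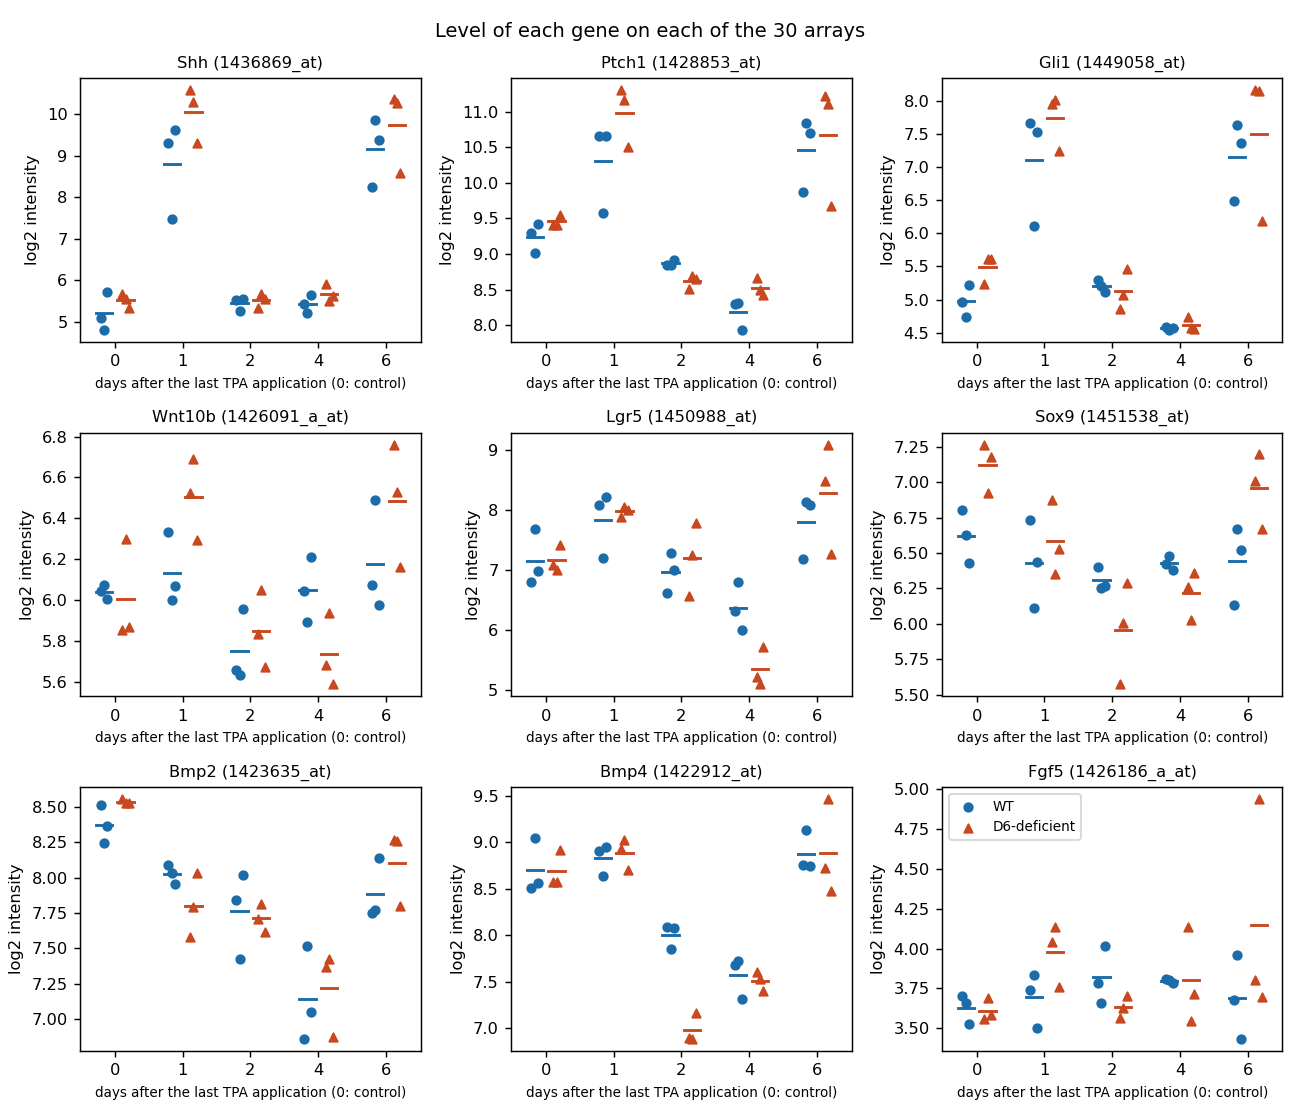
Log2 intensity of the quoted probe set of each gene (vertical axis, own scale for each gene) on each of the 30 arrays by day (horizontal axis), with WT arrays as blue circles, D6-deficient arrays as orange triangles and the mean of the 3 arrays as a bar. Shh, Ptch1 and Gli1 stand high at days 1 and 6 in both genotypes, with Shh at 7.46 or more there and at 5.91 or less elsewhere.

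Gli1 encodes the transcription factor that hedgehog signalling induces. Its WT arrays read 4.73, 4.96 and 5.22 at day 0, 6.11, 7.53 and 7.66 at day 1, then 6.48, 7.36 and 7.63 at day 6. The D6-deficient arrays read 5.24, 5.61 and 5.61 at day 0, 7.25, 7.96 and 8.01 at day 1, then 6.19, 8.15 and 8.16 at day 6. As for Shh, the arrays of these days did not overlap those of day 0. The log2 change was 2.13 (adjusted p = 3.8e-04) at day 1 and 2.18 (adjusted p = 3.9e-04) at day 6 in WT skin, and 2.25 (adjusted p = 1.1e-04) and 2.01 (adjusted p = 4.7e-04) in D6-deficient skin, each with an SE of 0.40. At day 4 all 6 arrays read 4.54 to 4.74, under every array of day 0 of their own genotype, but the change of -0.40 in WT skin (adjusted p = 0.45) and of -0.86 in D6-deficient skin (adjusted p = 0.086) did not pass. When the arrays of the contrast alone were fitted, the latter passed (adjusted p = 0.0019). With the methods' t-test and adjustment, the rises in WT skin at days 1 and 6 were lost (adjusted p = 0.086 and 0.081). That in D6-deficient skin at day 6 was lost too (adjusted p = 0.15).

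Ptch1 encodes the receptor that binds Shh and holds the pathway off in its absence. WT arrays read 9.01, 9.29 and 9.42 at day 0, 9.58, 10.66 and 10.66 at day 1, then 9.87, 10.70 and 10.83 at day 6. At days 2 and 4 they read 8.84, 8.84 and 8.92, and 7.94, 8.30 and 8.32. D6-deficient arrays read 9.41, 9.41 and 9.55 at day 0, 10.50, 11.16 and 11.30 at day 1, 9.68, 11.10 and 11.22 at day 6, and at most 8.69 at each of days 2 and 4. No array of a treated group overlapped day 0 of its genotype, above it at days 1 and 6 and below it at days 2 and 4. In WT skin Ptch1 rose by 1.06 at day 1 (adjusted p = 0.016) and by 1.22 at day 6 (adjusted p = 0.0067), and fell by 1.06 at day 4 (adjusted p = 0.0091), while -0.38 at day 2 did not pass (adjusted p = 0.41). In D6-deficient skin it rose by 1.53 at day 1 (adjusted p = 5.2e-04) and 1.21 at day 6 (adjusted p = 0.0047), and fell by 0.84 at day 2 (adjusted p = 0.036) and 0.93 at day 4 (adjusted p = 0.019). Single arrays decided several of these calls: the adjusted p rose to between 0.062 and 0.087 at day 1 in WT skin without WT day 0 replicate 2 or WT day 1 replicate 1 or 3, and to 0.055 at day 6 without WT day 6 replicate 2. In D6-deficient skin it rose to between 0.066 and 0.094 at day 2 whichever of the 6 arrays was left out, and to between 0.051 and 0.058 at day 4 without day 0 replicate 3 or day 4 replicate 2 or 3. The methods' t-test with adjustment gave an adjusted p of 0.17 and 0.13 for the rises at days 1 and 6 in WT skin. For that at day 6 in D6-deficient skin it gave 0.21, and limma on the arrays of the contrast alone gave 0.069. Both dimmer Ptch1 probe sets passed as higher at day 1 in D6-deficient skin (0.96 and 1.10), 1 of them also at day 6 (1.08), but neither passed as lower at any day, and with the mean of the 3 probe sets the decreases were lost (adjusted p = 0.21 in WT skin at day 4, 0.36 and 0.32 in D6-deficient skin at days 2 and 4), as was the rise at day 1 in WT skin (0.66, adjusted p = 0.055).

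Within days 1 and 6 the same arrays were low for the 3 hedgehog genes. The lowest 3 of the 12 arrays of these days were WT day 1 replicate 2, WT day 6 replicate 1 and D6-deficient day 6 replicate 3 for each of Shh, Ptch1 and Gli1, and also for Lgr5. Over these 12 arrays Pearson's r was 0.970 between Shh and Ptch1, 0.949 between Shh and Gli1 and 0.985 between Ptch1 and Gli1. Over the 18 arrays of days 0, 2 and 4 it was -0.10, 0.12 and 0.75, in the same order. These are descriptions over arrays that share their normalization and, within a group, their treatment.

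Of the 11 other hedgehog genes, 2 were higher and 2 lower than day 0 at day 1 in WT skin, and 4 and 4 in D6-deficient skin. At day 4 none was higher and 5 lower in WT skin, and 1 higher and 6 lower in D6-deficient skin. Of all tested probe sets, 11.4%, 11%, 17.3% and 10.2% were higher at days 1, 2, 4 and 6 in WT skin. As lower, the shares there were 12.7%, 15%, 21.8% and 11.9%. In D6-deficient skin 18.2%, 17.5%, 18.8% and 16% were higher, and 18.1%, 20.6%, 22.4% and 15.7% lower. These shares also stand beside the counts against day 0 of the lists that follow. Hhip, which encodes a surface protein that binds hedgehog ligands and is itself a target, rose by 1.47 and 1.98 at days 1 and 6 in WT skin and by 2.23 and 2.13 in D6-deficient skin. Gli2, the transcription factor that first answers the signal, rose by 0.88 and 0.86 in WT skin and 1.06 and 0.77 in D6-deficient skin at these days, and fell by 0.93 and 1.14 at day 4. Smo, the signal transducer, passed only as lower at day 4 in D6-deficient skin (-0.63).

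The WNT ligand Wnt10b and the receptor Lgr5 passed against day 0 in D6-deficient skin only, and for neither did the difference between the genotypes pass. Wnt10b is expressed at the onset of anagen. WT arrays ran from 5.63 to 6.49 over all days, and no WT comparison with day 0 passed. D6-deficient arrays read 5.85, 5.87 and 6.30 at day 0, 6.30, 6.52 and 6.69 at day 1, then 6.16, 6.53 and 6.76 at day 6. The highest array of day 0 overlapped both later groups, with day 1 by less than 0.01. Wnt10b rose by 0.50 (SE 0.16, adjusted p = 0.020) at day 1 and by 0.48 (SE 0.16, adjusted p = 0.028) at day 6. The former was lost without day 0 replicate 1 or 3 or day 1 replicate 1 or 2 of D6-deficient skin (adjusted p of up to 0.10), and the latter without day 0 replicate 1 or 3 or day 6 replicate 1 or 2 (up to 0.16).

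Lgr5 encodes a receptor for R-spondins, which strengthen WNT signals, and marks dividing stem cells of the lower bulge and hair germ. WT arrays read 6.81, 6.98 and 7.69 at day 0, 6.01, 6.32 and 6.80 at day 4, then 7.18, 8.09 and 8.13 at day 6. In D6-deficient skin they read 7.00, 7.08 and 7.42 at day 0, 5.10, 5.23 and 5.72 at day 4, then 7.27, 8.48 and 9.09 at day 6. The D6-deficient arrays of day 4 were the lowest of all 30, under every other array. In WT skin the changes of 0.67 at day 1, -0.79 at day 4 and 0.64 at day 6 did not pass (adjusted p = 0.21, 0.10 and 0.24). In D6-deficient skin Lgr5 fell by 1.81 at day 4 (SE 0.37, adjusted p = 3.7e-04) and rose by 1.11 at day 6 (SE 0.37, adjusted p = 0.025), while 0.81 at day 1 did not pass (adjusted p = 0.093). The rise at day 6 was lost without day 0 replicate 1 or 2 or day 6 replicate 1 or 2 of D6-deficient skin, with an adjusted p of 0.066 to 0.19, and also with the hybridization control set as a covariate (0.063) and with the arrays of the contrast alone (0.11). It was lost with the methods' t-test after adjustment as well (0.27). The change at day 1, in turn, passed with the arrays of the contrast alone (adjusted p = 0.0030), with the methods' t-test after adjustment (0.028) and with the mean of both probe sets (0.48, adjusted p = 0.047). The difference between the genotypes at day 4, -1.02 (95% interval -1.79 to -0.25), did not pass (adjusted p = 0.28), nor did the difference in change from day 0 (-1.03, adjusted p = 0.50). The dimmer Lgr5 probe set, between 3.89 and 4.72 on all arrays, passed in no comparison with day 0.

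Of the 39 other WNT genes tested, 8 were higher and 4 lower at day 1 in WT skin and 13 and 4 in D6-deficient skin. The 4 WNT genes lower at day 1 were a smaller share than that of all tested probe sets in either genotype (12.7% and 18.1%). At day 4, 1 was higher in each genotype and 15 were lower in WT skin and 18 in D6-deficient skin. At day 6, 7 were higher and 3 lower in WT skin and 14 and 6 in D6-deficient skin. Lef1, a transcription factor through which WNT signals act in the matrix, rose by 1.27 and 1.56 at days 1 and 6 in WT skin and by 1.91 and 1.97 in D6-deficient skin. Dkk1, a secreted WNT inhibitor, rose by 1.08 and 1.19, and by 1.29 and 1.04. Axin2, a widely used target of the pathway, passed only as lower: it fell by 1.15 at day 4 in WT skin and by 0.59, 1.18 and 1.99 at days 1, 2 and 4 in D6-deficient skin. Wnt5a, a ligand of dermal cells, fell by 1.52 and 1.48 at day 4, in WT and D6-deficient skin, and at day 2 its level in D6-deficient skin exceeded that in WT skin by 0.94. Wnt10a, the close relative of Wnt10b, rose by 0.70, 1.08 and 0.67 at days 1, 2 and 6 in WT skin and fell by 0.74 at day 4 in D6-deficient skin. The inhibitor Sfrp1 passed once, as lower at day 2 in D6-deficient skin (-0.42).

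The BMP ligands Bmp2 and Bmp4, which restrain the stem cells at rest, were lower than in control skin at days 2 and 4 in both genotypes. They were lowest at day 4, with the exception of Bmp4 in D6-deficient skin, which was lowest at day 2, and day 2 was the single day at which any member passed between the genotypes.

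Bmp4 arrays of WT skin read 8.50, 8.56 and 9.04 at day 0, 7.85, 8.08 and 8.08 at day 2, then 7.32, 7.68 and 7.72 at day 4. D6-deficient arrays read 8.57, 8.57 and 8.92 at day 0, 6.89, 6.89 and 7.16 at day 2, then 7.40, 7.53 and 7.60 at day 4. At day 2 every D6-deficient array stood below every WT array, whereas the genotypes overlapped at days 0, 1, 4 and 6. All 12 arrays of days 1 and 6 read between 8.48 and 9.46. Bmp4 fell by 0.70 at day 2 (SE 0.19, adjusted p = 0.0081) and by 1.13 at day 4 (adjusted p = 4.8e-05) in WT skin, and by 1.71 (adjusted p = 2.2e-07) and 1.18 (adjusted p = 2.3e-05) in D6-deficient skin. Between the genotypes at day 2 the difference was -1.02, D6-deficient minus WT (SE 0.19, 95% interval -1.42 to -0.63, adjusted p = 0.0015), and relative to day 0 it was -1.01 (SE 0.27, 95% interval -1.56 to -0.45, adjusted p = 0.027). Of all tested probe sets, 1.99% were lower and 2.46% higher in D6-deficient skin at day 2, and relative to day 0 the shares were 2.62% and 2.78%. The former call was kept without any single array of its groups. The latter was lost without any 1 of 7 of its 12 arrays, WT day 0 replicates 1 and 3, WT day 2 replicates 1 and 3, D6-deficient day 0 replicate 3 and D6-deficient day 2 replicates 1 and 2, with an adjusted p of 0.056 to 0.080. It was -1.37 within hybridization control set A and -0.60 within set B. The methods' t-test with adjustment gave 0.12 for the difference at day 2. In an F test over all days the difference between the time courses did not pass for Bmp4 (adjusted p = 0.066).

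Markers of other cells also differed between the genotypes at day 2. Of 5 neutrophil genes, 3 were higher in D6-deficient skin, and the mean level of the list was 9.81 to 10.6 in WT skin and 11.3 to 11.8 in D6-deficient skin. Of 5 sebaceous gland genes 2, of 6 skeletal muscle genes 2 and of 9 follicle stem cell genes 1 were lower. Their part in the difference of Bmp4 was not tested.

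**Figure D2:**
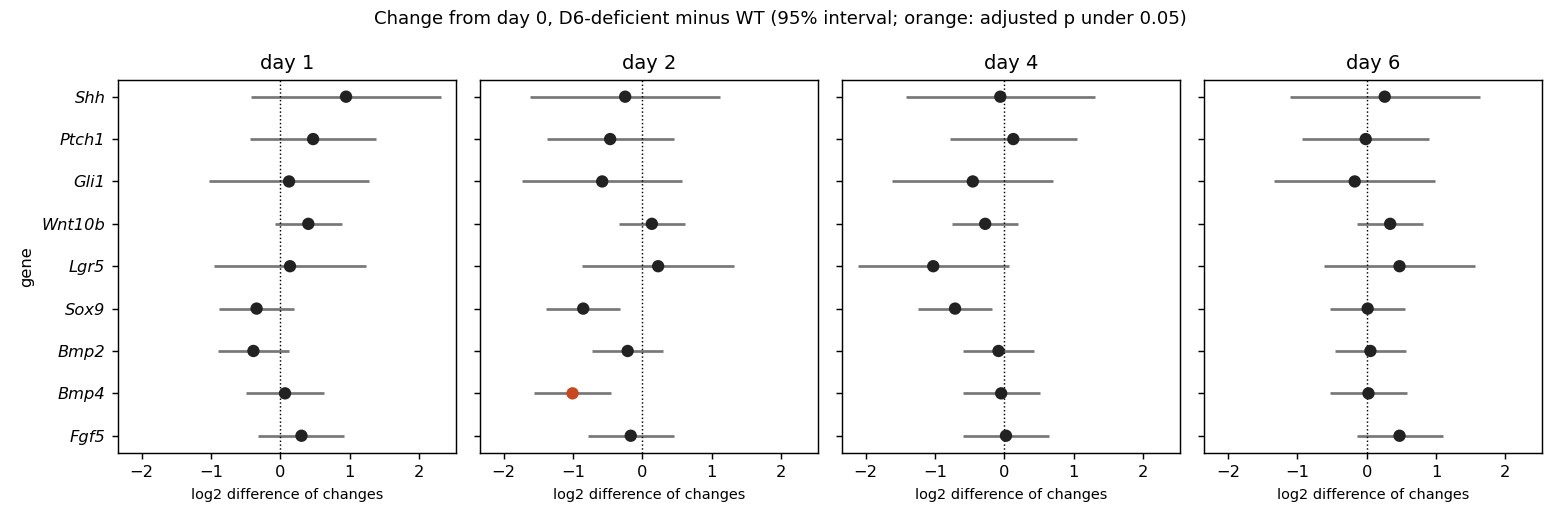
Difference between the genotypes in the log2 change from day 0 (D6-deficient minus WT, horizontal axis) for each gene (vertical axis) at days 1, 2, 4 and 6, with the 95% interval of limma as a line and an orange point where the adjusted p was under 0.05. Bmp4 at day 2 (-1.01) is the single orange point, and the intervals of Shh, Ptch1 and Gli1 include 0 at every day.

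Bmp2 arrays of WT skin read 8.24, 8.36 and 8.51 at day 0 and 6.86, 7.05 and 7.52 at day 4. D6-deficient arrays read 8.53, 8.53 and 8.55 at day 0 and 6.87, 7.37 and 7.43 at day 4. The treated arrays of every day lay below those of day 0 of their genotype. Bmp2 fell by 0.61 at day 2 (adjusted p = 0.012) and 1.23 at day 4 (adjusted p = 6.6e-06) in WT skin, where -0.35 at day 1 and -0.48 at day 6 did not pass (adjusted p = 0.17 and 0.051). In D6-deficient skin it fell by 0.74, 0.82 and 1.31 at days 1, 2 and 4 (adjusted p = 0.0021, 6.7e-04 and 2.0e-06), and -0.43 at day 6 did not pass (adjusted p = 0.066). The SE of each change was 0.18. The decrease at day 2 in WT skin was lost without WT day 0 replicate 1 (adjusted p = 0.057) or WT day 2 replicate 2 (0.10), and that of Bmp4 without WT day 0 replicate 2 (0.063). Without WT day 6 replicate 3 the change of Bmp2 at day 6 in WT skin passed (adjusted p = 0.026).

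Of the 23 other BMP genes, 5 were higher and 9 lower at day 4 in WT skin and 7 and 10 in D6-deficient skin, with 1 to 5 higher and 2 to 8 lower at the other days. The BMP inhibitor Grem1 rose by 1.35 at day 4 in WT skin and by 1.54 in D6-deficient skin, where it fell by 1.21 at day 1 and by 1.36 at day 6. Sostdc1, an inhibitor of BMP and WNT signals, fell by 2.18 and 2.75 at day 4. The receptor Bmpr1a fell at day 4 by 0.65 and 0.64. Nog, the BMP inhibitor noggin of the anagen follicle, passed once, as higher at day 4 in D6-deficient skin (0.61). Id1, a common BMP target, rose at every day in both genotypes, by 0.67 to 1.33, and the related Id3 rose at days 1, 4 and 6 in D6-deficient skin (0.68, 0.76 and 0.49).

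Sox9, a transcription factor that maintains the bulge and the outer root sheath, fell in D6-deficient skin alone, although the difference from WT skin did not pass. D6-deficient arrays read 6.92, 7.18 and 7.27 at day 0, 5.57, 6.01 and 6.29 at day 2, then 6.03, 6.26 and 6.36 at day 4. WT arrays ran from 6.11 to 6.81 over all days. At day 0 every D6-deficient array stood above every WT array (6.43 to 6.81), but the difference of 0.50 in the mean did not pass (adjusted p = 0.18). Sox9 fell by 0.54 at day 1 (adjusted p = 0.025), 1.17 at day 2 (adjusted p = 2.2e-05) and 0.91 at day 4 (adjusted p = 3.1e-04) in D6-deficient skin, with an SE of 0.18 each, and passed at no day in WT skin. The difference in change between the genotypes was -0.85 at day 2 (95% interval -1.39 to -0.32, adjusted p = 0.055) and -0.71 at day 4 (adjusted p = 0.25). The former passed with the hybridization control set as a covariate (adjusted p = 0.026) and with the 40% of dimmest probe sets left out (adjusted p = 0.045), and without D6-deficient day 0 replicate 2 (0.044) or D6-deficient day 2 replicate 3 (0.026). Without D6-deficient day 2 replicate 1 it was -0.66 (adjusted p = 0.15), and it was -1.24 within hybridization control set A and -0.52 within set B. Another Sox9 probe set of nearly the same brightness fell at days 2 and 4 (-0.64 and -0.62) in D6-deficient skin but not at day 1 (-0.13, adjusted p = 0.58), and the decrease at day 1 was lost without day 0 replicate 1 or 3 or day 1 replicate 2 or 3 of D6-deficient skin (adjusted p of 0.064 to 0.13). On that other probe set the genotypes overlapped at day 0, with D6-deficient arrays at 6.44 to 6.97 and WT arrays at 6.32 to 6.56. Its means at days 0 and 2 were 6.74 and 6.10 in D6-deficient skin and 6.44 and 6.17 in WT skin.

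The other follicle stem cell genes behaved in more than 1 way. Of 9 genes, 6 were lower at day 4 in WT skin and 8 in D6-deficient skin, and none was higher there. Krt15, a keratin of the bulge, fell at every day in both genotypes, most at day 4 (by 2.83 and 4.02), and Cd34, a bulge surface marker, fell by 1.44 and 1.25 at day 4. Lhx2, a transcription factor of the bulge and hair germ, followed the hedgehog genes, with changes of 1.61 and 1.84 at days 1 and 6 and -1.96 at day 4 in WT skin, and of 1.71, 1.57 and -2.92 in D6-deficient skin.

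Fgf5 promotes the end of anagen, and mice without it have long hair. Its quoted probe set was dim, between 3.43 and 4.94 on all arrays, close to the lowest mean kept (3.72), and passed in no comparison with day 0. D6-deficient arrays of day 6 read 3.70, 3.80 and 4.94 against 3.56, 3.58 and 3.69 at day 0, a change of 0.54 (SE 0.21, 95% interval 0.10 to 0.98, adjusted p = 0.056), of which most lay in 1 array, D6-deficient day 6 replicate 2. Without replicate 2 of that group the change was 0.14 (adjusted p = 0.57), while the adjusted p was 0.0093 without replicate 3 and 0.024 without replicate 1. With the arrays centred on their medians it was 0.029. Of 18 other FGF genes, at each of days 2 and 4 in WT skin 5 were lower, and 8 in D6-deficient skin, among them Fgfr2, the receptor of keratinocytes, which fell by 1.46 at day 4 in WT skin and by 1.15 and 2.28 at days 2 and 4 in D6-deficient skin. Fgf7, a ligand of that receptor made by dermal cells, rose at day 4 by 1.05 and 1.70. Spry1, an inhibitor that FGF signals induce, fell by 0.46, 0.93 and 0.68 at days 1, 2 and 4 in D6-deficient skin. Fgf18, a follicle growth factor of telogen, fell by 2.20 to 2.41 at every day in D6-deficient skin and by 0.87 and 1.21 at days 1 and 6 in WT skin.

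**Figure D3:**
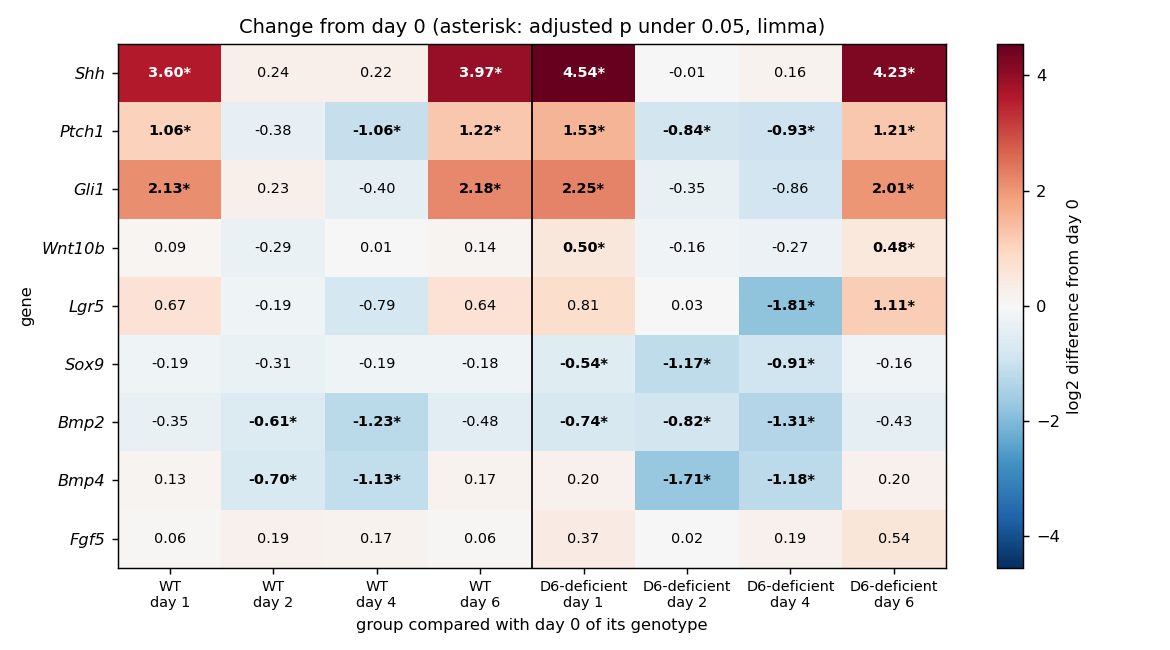
Log2 difference of each gene (rows) from day 0 of its genotype at days 1, 2, 4 and 6 (columns), with an asterisk where the adjusted p of limma was under 0.05. The hedgehog genes in the top rows are higher at days 1 and 6, from 1.06 for Ptch1 to 4.54 for Shh, and Bmp2 and Bmp4 are lower at days 2 and 4.

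Counted over the 9 genes, those that passed as higher were 3 of 9 at day 1 in WT skin, beside 11.4% of all tested probe sets, 0 at day 2 (11%), 0 at day 4 (17.3%) and 3 at day 6 (10.2%). As lower, 0 passed at day 1 (12.7%), 2 at day 2 (15%), 3 at day 4 (21.8%) and 0 at day 6 (11.9%). In D6-deficient skin 4 were higher at day 1 (18.2%), 0 at day 2 (17.5%), 0 at day 4 (18.8%) and 5 at day 6 (16%), and 2 were lower at day 1 (18.1%), 4 at day 2 (20.6%), 5 at day 4 (22.4%) and 0 at day 6 (15.7%). The median change of the 9 genes was 0.17 at day 6 and -0.40 at day 4 in WT skin and 0.54 and -0.91 in D6-deficient skin, while over all tested probe sets it lay between -0.01 and 0.02 in each comparison with day 0. F tests over the days passed for 6 of 9 genes in WT skin (44.7% of all probe sets) and for 8 of 9 in D6-deficient skin (58.1%).

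No gene other than Bmp4 passed between the genotypes. In limma 0 of 9 passed at day 0 (1.57% of all tested probe sets), day 1 (0.0555%), day 4 (0.513%) and day 6 (0.125%), and 0 of 9 relative to day 0 at day 1 (0.0194%), day 4 (0.608%) and day 6 (0.025%). At an unadjusted p under 0.05 there were 1, 3, 1 and 2 genes at days 0, 1, 4 and 6, and 0, 1 and 0 relative to day 0. The share of all tested probe sets at an unadjusted p was not computed, here or for the unadjusted counts that follow. These counts therefore cannot be set against the rate over all probe sets. For Shh the difference at day 1, D6-deficient minus WT, was 1.26 (95% interval 0.30 to 2.23, adjusted p = 0.49), although WT replicate 2 (7.46) alone stood far below the other 5 arrays (9.30 to 10.57). Ptch1 differed by 0.69 (0.04 to 1.33, adjusted p = 0.60) and Wnt10b by 0.37 (0.03 to 0.71, adjusted p = 0.59) at that day. For a difference in time course 0 of 9 passed the F test (2.54%), with 3 genes, Bmp4, Sox9 and Wnt10b, at an unadjusted p under 0.05.

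The alternation between days was also tested between neighbouring days, comparisons that were added after the values had been seen. From day 1 to day 2, 4 of 9 genes fell in WT skin (0.566% of all probe sets) and 6 in D6-deficient skin (5.24%), and none rose (0.633% and 5.18% of all probe sets). From day 2 to day 4 only 1 of 9 fell in WT skin (7.39%), Bmp2 by 0.62 (adjusted p = 0.018), and 1 in D6-deficient skin (8.54%), Lgr5 by 1.85 (adjusted p = 0.0011), and none rose in limma (7.16% and 7.76%). At an unadjusted p under 0.05, 0 genes were higher and 3 lower in WT skin and 1 higher and 2 lower in D6-deficient skin. The decrease of Bmp2 was lost without WT day 2 replicate 1 or 3 or WT day 4 replicate 1 or 3 (adjusted p of 0.065 to 0.12), and with the arrays of the contrast alone (0.086). From day 4 to day 6, 6 of 9 rose in WT skin (12.1%) and 8 in D6-deficient skin (16.8%), and none fell (10% and 14.5%). Shh fell by 3.35 (adjusted p = 5.7e-04) from day 1 to day 2 in WT skin and by 4.55 (adjusted p = 5.5e-07) in D6-deficient skin. Between days 1 and 6, 0 of the 9 genes passed in limma in WT skin (0.117%) or D6-deficient skin (0.289%), nor did any at an unadjusted p under 0.05, and the 95% interval of the difference for Shh was -0.60 to 1.34 in WT skin and -1.28 to 0.65 in D6-deficient skin. The decreases of Shh, Ptch1, Gli1 and Bmp4 from day 1 to day 2 in WT skin did not pass when the arrays of that contrast alone were fitted (adjusted p = 0.054, 0.086, 0.087 and 0.064), and those of Ptch1, Gli1 and Bmp4 were lost without any 1 of several arrays (WT day 1 replicates 1 and 3 and WT day 2 replicate 2 for all 3 genes), with an adjusted p of up to 0.16, 0.14 and 0.19.

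Genes of the growing follicle shared the days of the hedgehog genes. Of 26 tested genes of the anagen matrix and hair shaft, 15 were higher at day 1 and 20 at day 6 in WT skin, and 17 and 24 in D6-deficient skin, with none lower. At days 2 and 4 at most 2 were higher and 1 lower. The median change of the list was 1.56 and 2.91 at days 1 and 6 in WT skin and 2.00 and 4.34 in D6-deficient skin. Its mean level was 5.03 to 5.25 on the 18 arrays of days 0, 2 and 4 and 6.39 to 11.2 on the 12 arrays of days 1 and 6, without overlap. Krt35, a keratin of the hair shaft, rose by 6.00 and 6.79 in WT skin and by 6.98 and 7.13 in D6-deficient skin at these days. Krt71, of the inner root sheath, rose by 4.88 and 5.92, and by 6.02 and 6.57. Msx2 and Hoxc13, transcription factors of the matrix, rose by 2.66 to 3.94 and by 1.97 to 2.78. Foxn1, which drives hair keratin genes, passed at day 6 in WT skin (1.30) and at days 1 and 6 in D6-deficient skin (1.26 and 1.88).

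Melanocyte genes were high at the same days, with 6 of 7 higher at day 1 and 7 at day 6 in WT skin and 7 at both in D6-deficient skin, among them the pigment enzyme gene Dct (2.96 and 3.31, and 3.66 and 3.22). At day 2 in D6-deficient skin, however, 2 of 7 were also higher, and the mean level of the list read 5.55, 6.60 and 6.90 against 5.32 to 5.46 at day 0, so that it overlapped the lowest array of day 1 (6.77, WT replicate 2). In WT skin at day 2 it read 5.57 to 5.63, with 0 of 7 higher. Of 10 dermal papilla genes, 2 to 4 were higher at these days, including Corin in D6-deficient skin (2.33 and 1.98) and at day 6 in WT skin (1.51). Vcan, a matrix protein of the papilla that other dermal cells also make, rose at days 1, 4 and 6 in both genotypes, by 0.85 to 1.25. Proliferation genes, by contrast, were not tied to these days: 7 of 7 were higher at days 1, 2 and 6 in WT skin and 6 at day 4, and 7, 6, 0 and 7 at days 1, 2, 4 and 6 in D6-deficient skin. Mki67 rose by 1.39, 1.37 and 1.58 at days 1, 2 and 6 in WT skin and by 1.11 and 1.21 at days 1 and 6 in D6-deficient skin. The stage of the hair cycle in each mouse was not recorded in the labels, so that its part in these values was not tested, and day and any difference in stage between the mice of a day cannot be told apart.

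**Figure D4:**
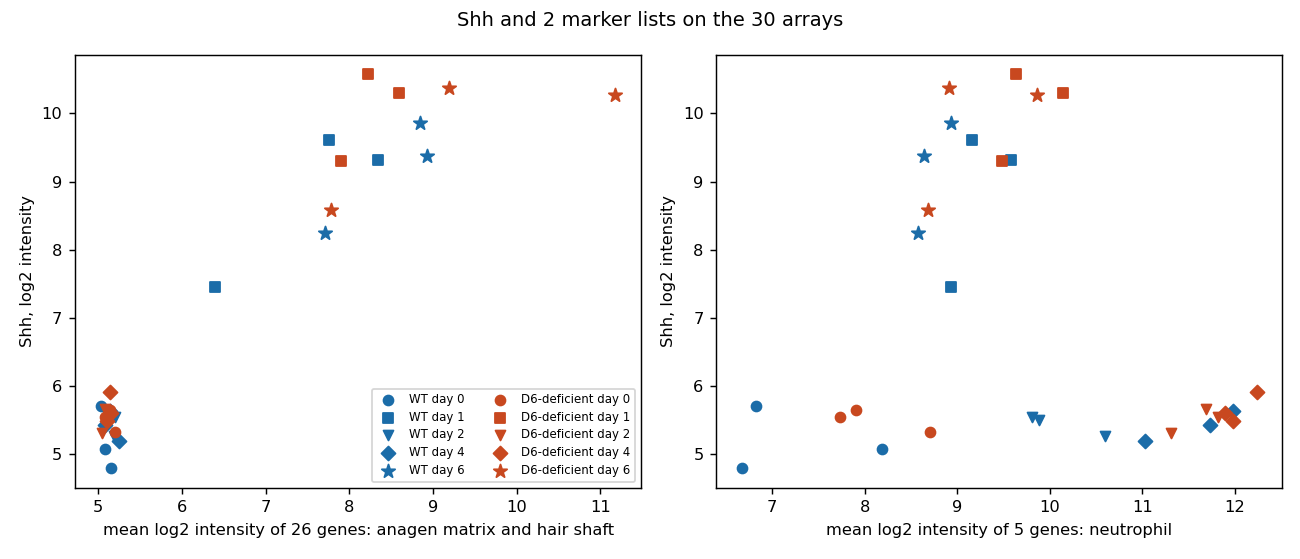
Shh log2 intensity (vertical axis) on each of the 30 arrays against the mean log2 intensity of 26 genes of the anagen matrix and hair shaft (left) and of 5 neutrophil genes (right), with WT arrays in blue, D6-deficient arrays in orange and a symbol for each day. On the left the 18 arrays of days 0, 2 and 4 lie together at 5.03 to 5.25 and the 12 arrays of days 1 and 6 stand apart from 6.39 up, whereas on the right those 12 arrays lie at 8.57 to 10.1, below every array of day 4 (11.0 to 12.2).

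Neutrophil markers stood highest on other days. The mean level of the 5 neutrophil genes was 6.67 to 8.71 at day 0, 8.93 to 10.1 at day 1, 9.81 to 11.8 at day 2, 11.0 to 12.2 at day 4 and 8.57 to 9.86 at day 6, highest at the day at which Bmp2, Ptch1 and Gli1 were lowest. Of 5 macrophage genes 3 were higher and 2 lower at day 4 in both genotypes. Of 5 T cell genes, 1 to 3 were higher and none lower at each day. Over the T cell list the mean level was 6.30 to 6.83 at day 0 and 6.69 to 7.07 at day 4. At days 1, 2 and 6 it was 7.05 to 7.34, 7.14 to 7.49 and 6.89 to 7.48. Of 7 epidermal keratinocyte genes, 6 were higher at days 1, 2 and 6 and 3 at day 4 in WT skin, and 2, 4, 2 and 2 at days 1, 2, 4 and 6 in D6-deficient skin, where 4 were lower at day 4. Among 6 fibroblast genes at most 1 was higher and 3 lower, and among 5 adipocyte genes none was higher and at most 3 lower. Skeletal muscle genes, from the layer under the skin, were lower than day 0 on all treated days, 6 of 6 in each comparison, with a mean level of 13.4 to 13.7 at day 0 and 11.1 to 12.8 on the treated arrays. Sebaceous gland genes fell too, 3 of 5 at days 1, 2 and 6 and 4 at day 4 in WT skin and 4, 4, 4 and 2 at days 1, 2, 4 and 6 in D6-deficient skin. The part of these other cell types in the levels of the 9 genes was not tested.

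**Figure D5:**
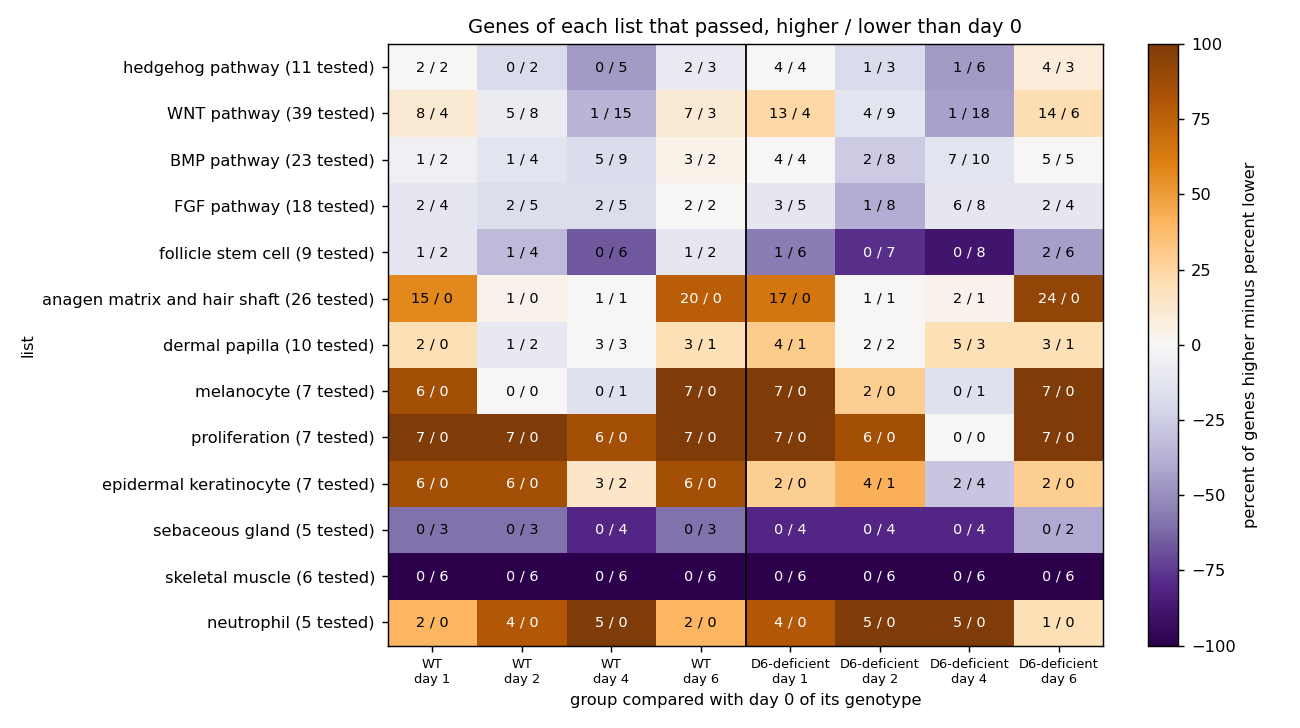
Number of tested genes of each list (rows, with the number tested) that passed as higher / lower than day 0 of the genotype at each day (columns), coloured by the percent higher minus the percent lower. The anagen matrix and hair shaft and melanocyte lists are widely higher at days 1 and 6, with at most 2 genes higher at days 2 and 4, whereas the neutrophil list is higher most widely at days 2 and 4.

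The genes whose levels ran most closely with each member over the 30 arrays were found by Pearson's r, as a description. For Shh they were the keratin genes Krt35 (0.988), Krt28 (0.988), Krt73 (0.985) and Krt85 (0.984) and the transcription factor gene Mycn (0.983). Within the 12 arrays of days 1 and 6 their r with Shh was 0.883 to 0.960, and within the 18 others it was -0.16 to 0.22. For Gli1 they were Mycn (0.986), the WNT inhibitor gene Wif1 (0.981), Ptch1 (0.971), Slc39a10 (0.968) and Krt28 (0.968). For Ptch1 they were Bach2 (0.975), Gli1, Wif1 (0.966), Lhx2 (0.963) and Msx1 (0.961), and the r of Ptch1 with Bach2 was 0.952 within days 1 and 6 and 0.950 within the other days. Lgr5 ran with Hes1 (0.954), the WNT receptor gene Fzd2 (0.939) and a probe set of Wnt5a (0.934), Bmp4 with Mfsd4 (0.953) and Bmp2 with Col4a5 (0.940). Wnt10b ran with Rspo2, which encodes a ligand of Lgr5 (0.837), and with Dkk1 (0.820). Within days 1 and 6 these r were 0.90 and 0.86, but within the 18 other arrays only 0.19 and 0.16. The highest r was 0.822 for Sox9 (Wdr75) and 0.887 for Fgf5 (Krtap5-1).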

How the data were processed

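RNA from whole back skin of 30 mice was measured on Affymetrix mouse genome expression arrays. The values that the authors deposited are linear intensities per probe set, which the submitters' processing notes say were normalized by RMA, a method that corrects background, equalizes the distributions of the arrays and summarises the probes of a set. They are therefore not comparable between probe sets. All log2 values were computed here from the deposited intensities. Of 45101 probe sets, 64 controls were left out and 45037 kept, of which the dimmest 20% by mean over the arrays (9008) were not tested. limma 3.58.1 in R 4.3.3 was fitted to all 30 arrays with 1 mean for each genotype and day, and p-values were adjusted over all 36029 tested probe sets of a contrast (Benjamini-Hochberg). The fit was tested on simulated data. The methods' t-test is the unpaired test named in the study, run on the same values. Hybridization control sets were read from 9 spiked probe sets.

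Alternatives were a filter of 40%, centring of the arrays, the hybridization control set as a covariate, the replicate number as a block, the mean of a gene's probe sets, the arrays of the contrast alone, the methods' t-test, stricter thresholds, and leaving out each array. All arrays count as 1 mouse each per the labels, and their number limits the precision. Named genes were all probe sets of the 9 members, a fixed set of pathway and marker genes named whatever they did, of which 1 is not reported here, and the 5 genes with the highest r. The members and lists were chosen with earlier results of these data known, so that no list is independent support. Figures were drawn with matplotlib 3.10.9 in Python 3.11.15.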

Additional observations from a re-analysis of the deposited data

Results flagged for a closer look

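The change of Bmp4 from day 0 to day 2 differed between the genotypes by -1.01 on the log2 scale, D6-deficient minus WT, by the interaction contrast of limma. At day 2 the 3 D6-deficient arrays read 6.89, 6.89 and 7.16 and the 3 WT arrays 7.85, 8.08 and 8.08.

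A Fgf5 probe set that was just below the filter on dim probe sets, and so was not tested, read higher on all D6-deficient arrays of days 1 and 6 than on any control array. It read 4.10, 4.11 and 4.15 at day 1 and 3.94, 4.78 and 7.10 at day 6, against 3.24, 3.26 and 3.44 at day 0 of D6-deficient skin and 3.06, 3.17 and 3.48 at day 0 of WT skin. The highest value, 7.10, was D6-deficient day 6 replicate 2, the array on which the quoted Fgf5 probe set was also highest (4.94). WT arrays read 3.42, 3.49 and 3.75 at day 1 and 3.26, 4.35 and 4.97 at day 6, so that 2 of 3 at each of these days also stood above every control array. At day 2 WT arrays read 3.19, 3.47 and 3.61 and D6-deficient arrays 3.05, 3.10 and 3.36. At day 4 they read 3.31, 3.35 and 3.43, and 3.29, 3.56 and 3.63, in the same order. The highest arrays of WT day 2 and D6-deficient day 4 thus stood above every control array too. The difference between the genotypes was not tested for this probe set.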

How the results depend on the processing

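The 81 log2 differences of single genes followed here had passed in limma with all arrays or were among those quoted, and the rest were not followed. Being picked in this way they were unlikely to change sign, and over all alternatives none reversed its direction. Of 944 such values under alternatives other than leaving out an array, 831 kept their side of the threshold or, within a hybridization control set, stayed within the spread between replicates, 58 lost the call, 20 gained it, and 35 values within such a set, which have no test, moved by more than that spread. Of 510 values without 1 array, 445 kept the call, 60 lost it and 5 gained it. The number of the 9 genes that passed moved as follows, where the step from day 2 to day 4 had 1 gene in each genotype. Apart from leaving out 1 array, only the larger changes of a count are listed. A count that is not named for a setting may thus also have changed. Asking for over 3-fold as well left 0 at day 2 and 0 at day 4 in WT skin, 2, 1, 1 and 2 at days 1, 2, 4 and 6 in D6-deficient skin, 0 between the genotypes at day 2 and 0 relative to day 0, 2 from day 1 to day 2 and 3 from day 4 to day 6 in WT skin, 4 from day 4 to day 6 in D6-deficient skin, and 0 from day 2 to day 4 in WT skin. Of all tested probe sets, 1.9% and 3.24% met this rule, in either direction, at days 2 and 4 in WT skin. In D6-deficient skin 2.49%, 3.27%, 4.01% and 2.13% did at days 1, 2, 4 and 6. Between the genotypes at day 2 it was 0.572%, and 1.11% relative to day 0. For the steps, in the order above, it was 0.228%, 2.03%, 3.13% and 1.16%. No such shares were computed for the settings that follow. An adjusted p under 0.01 left 1 at day 2, 1 from day 1 to day 2 and 0 from day 2 to day 4 in WT skin, 3 at day 6 in D6-deficient skin, and 0 between the genotypes at day 2 relative to day 0. With the arrays of the contrast alone, 2 passed at day 6 in D6-deficient skin, 0 from day 1 to day 2 in WT skin and 2 from day 2 to day 4 in each genotype. From day 2 to day 4 in D6-deficient skin the 40% filter and centred arrays gave 2 and the mean of a gene's probe sets 3. The 40% filter and the hybridization control set each gave 2 between the genotypes at day 2 relative to day 0, and centred arrays gave 1 for genotype by day. The methods' t-test with adjusted p gave 0 at days 1, 2 and 6 and 0 from day 1 to day 2 in WT skin, 0 at day 6, 2 from day 1 to day 2, 0 from day 2 to day 4 and 0 from day 4 to day 6 in D6-deficient skin, and 0 between the genotypes at day 2. With unadjusted p it gave 5 at day 4 and 3 from day 2 to day 4 in WT skin, 3 at day 6 and 2 from day 2 to day 4 in D6-deficient skin, and 1, 2 and 1 between the genotypes at days 0, 2 and 4. The cause of these changes was not tested. Without 1 array the count ran from 2 to 3 at day 1, 1 to 2 at day 2, 2 to 4 at day 6, 1 to 4 from day 1 to day 2 and 0 to 1 from day 2 to day 4 in WT skin. In D6-deficient skin it ran from 4 to 6 at day 1, 4 to 5 at day 4, 3 to 6 at day 6, 5 to 6 from day 1 to day 2, 1 to 2 from day 2 to day 4 and 8 to 9 from day 4 to day 6 and over the days, and at day 2 it was 3, against 4 with all arrays, whichever array was left out. It ran from 0 to 2 between the genotypes at day 2 relative to day 0, and from 0 to 1 for genotype by day.

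Deviations from the group means of same-numbered WT and D6-deficient arrays of a day correlated at -0.18 to 0.38 (median -0.06, 15 pairs). Those of differently numbered arrays correlated at -0.45 to 0.38 (median 0.02, 30 pairs). Pairing by replicate number was thus not seen between the genotypes of a day, and pairing across days was not checked. Each replicate number occurred once in every group, so that a replicate block could not change a log2 difference, only its SE. With the block all 109 of 109 results, 28 counts and the 81 log2 differences picked above, kept their call. It gave 3 genes at day 1 in WT skin, 6 at day 1 in D6-deficient skin and 1 between the genotypes at day 2.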
